A study of Mus musculus with 6 samples.

Results

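The sebaceous gland lipid genes described here are Awat1, Awat2, Dgat2, Elovl3, Elovl4, Scd3 and Mc5r, 7 of the 19938 genes measured in mouse skin on an Affymetrix mouse gene array. They were chosen by name, as probe sets of the deposited table whose only gene symbol in the array annotation is one of these, and each had a single such probe set. The samples came from the skin of male mice of the albino inbred strain BALB/c, 5 to 6 weeks old, in 3 groups of 2 arrays: intact skin, wounds on day 1 and wounds on day 4 after injury. A wounded mouse had a pair of full-thickness punch wounds of 4 mm on its shaved back, and an 8 mm punch then took the wound with the skin around it, so the wound itself was 25% of the biopsy area. No genetic change or drug was named for any group, the replicates are called biological, and it is not stated if a sample came from 1 mouse or from several, so the p-values measure the spread between these samples.

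The sebaceous gland opens into the hair canal, and its cells, the sebocytes, fill with lipid, burst and release sebum, an oily film that coats hair and skin. Fatty acids are desaturated and elongated, some are reduced to fatty alcohols, and acyltransferases then join them into wax esters and triglycerides. In the mouse, sebum output is under melanocortin control through Mc5r, a receptor of exocrine glands.

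On day 4 both wax ester enzymes and both elongases were higher than in intact skin, and the receptor was lower. Awat1, Awat2, Elovl3 and Elovl4 rose 1.83-fold, 1.71-fold, 1.43-fold and 1.38-fold, and Mc5r was 2.17-fold lower. On day 1 Mc5r was already 2.58-fold lower, and of the enzymes only Awat1 had passed the test, at 1.43-fold. Dgat2 and Scd3 passed in no comparison. In limma's moderated test with Benjamini-Hochberg adjustment over all 19938 genes and a threshold of 0.05, 5 of the 7 genes were called on day 4 against intact skin (4 higher and 1 lower), where 26.9% of all genes were called (14.8% higher and 12.1% lower). With median centring the calls over all genes on day 4 were 2574 higher and 3345 lower, against 2958 and 2413 in the values as deposited. On day 1, 2 of 7 were called (1 higher and 1 lower) against 29.3% of all genes (14.7% higher and 14.6% lower). Between the days 1 of 7 was called, as higher, against 2.23% of all genes (1.09% higher and 1.14% lower), and the F test among the 3 groups called 5 of 7, against 30.7%. Over all genes between the days cyclic loess gave 195 higher and 310 lower calls, against 217 and 227. Leaving out 1 array moved these counts: on day 4 they were 1 of 7 without intact replicate 2 and 3 of 7 without intact replicate 1 or day 4 replicate 2. On day 1 a single gene, Mc5r, was called without day 1 replicate 2 or either intact array, and between the days 0 of 7 were called without any 1 of the 6 arrays. Without either intact array the F test called 2 of 7. The genes were named with earlier results of these data known, so these counts are descriptions. The shares of all genes include dim genes. With the dimmest 30% left out they were larger, with 5806 of 13953 genes called on day 1 and 5297 of 13953 on day 4.

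**Figure D1:**
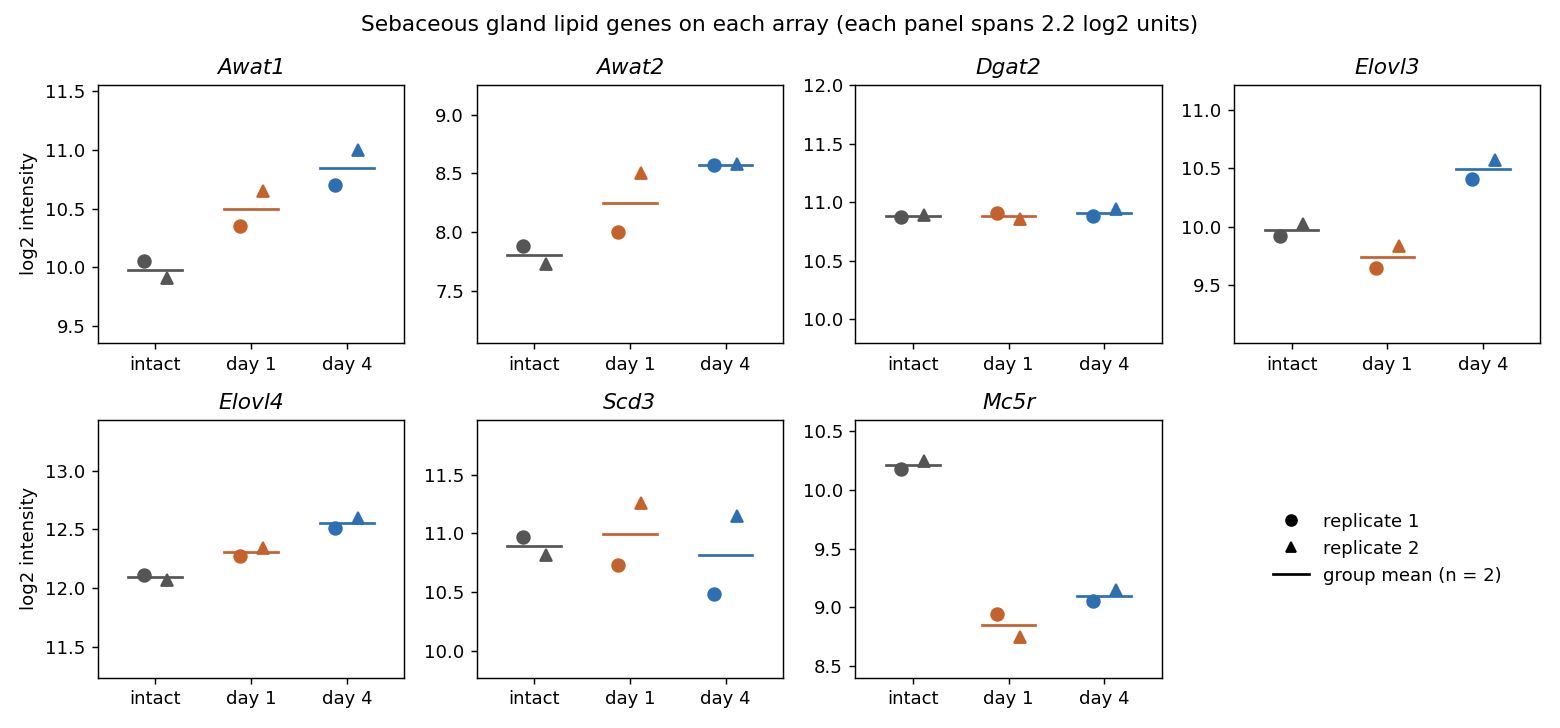
Log2 intensity of the 7 genes on each of the 6 arrays, in intact skin, day 1 wounds and day 4 wounds; circles are replicate 1, triangles replicate 2, and lines the group means of 2 arrays. Mc5r lies between 8.75 and 9.15 on the 4 wound arrays, below the 10.18 and 10.25 of intact skin, whereas Dgat2 stays between 10.86 and 10.94 on all 6.

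The arrays were alike in overall signal, with medians between 6.89 and 6.93 and lower quartiles between 5.29 and 5.37, and all 7 genes lay above the lower quartile on every array. Replicates correlated across genes with r = 0.9967 in intact skin, 0.9891 on day 1 and 0.9861 on day 4, where genes are not independent replicates. All 13 measured sebocyte markers and regulators also lay above the lower quartile on all 6 arrays, the wound arrays included. In whole biopsies fewer cells of a type and less RNA per cell cannot be told apart. The small number of arrays, 2 per group, sets the precision throughout.

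Awat1 and Awat2 encode acyl-CoA wax alcohol acyltransferases, which esterify fatty alcohols into waxes. Awat1 had log2 intensities of 10.05 and 9.91 in intact skin, 10.35 and 10.65 in day 1 wounds, and 10.70 and 11.00 in day 4 wounds. All 4 wound arrays were above both intact arrays, and the day 4 arrays lay above those of day 1. On day 4 the mean was 10.85 ± 0.21, against 9.98 ± 0.10 for intact skin (SD, n = 2 each), a log2 difference of 0.87 (SE 0.14, limma adjusted p = 0.00680). On day 1 the difference from intact skin was 0.52 (SE 0.14, limma adjusted p = 0.0363). The step between the days, 0.35 (95% interval 0.01 to 0.69, limma adjusted p = 0.254), did not pass.

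Awat2 had 7.88 and 7.73 in intact skin, 8.00 and 8.50 in day 1 wounds, and 8.57 and 8.58 in day 4 wounds. The wound arrays again lay above the intact ones, with day 1 replicate 1 the nearest to them, and both day 4 arrays were above both of day 1. The log2 difference was 0.77 on day 4 (SE 0.16, limma adjusted p = 0.0161). On day 1 it was 0.45 (SE 0.16, limma adjusted p = 0.0855), which missed the threshold, and between the days it was 0.33 (95% interval −0.06 to 0.71, limma adjusted p = 0.335).

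Each of these 3 calls was lost when certain arrays were left out. The day 1 call of Awat1 was lost without day 1 replicate 2 (0.37, limma adjusted p = 0.179), without intact replicate 1 (0.59, adjusted p = 0.102) and without intact replicate 2 (0.45, adjusted p = 0.167). Its day 4 call was lost only without intact replicate 2 (0.80, limma adjusted p = 0.0537). That of Awat2 on day 4 was lost without any 1 of the 4 arrays compared, with log2 differences of 0.70 to 0.85 and limma adjusted p from 0.0601 to 0.0955. On day 1 Awat2 passed without day 1 replicate 1, at a log2 difference of 0.70 (limma adjusted p = 0.0105).

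Awat1 lies on chromosome X beside Dgat2l6, a further gene of the same acyltransferase family, in RefSeq's mouse assembly GRCm38.p6. Dgat2l6 had 8.67 and 8.65 in intact skin, 9.20 and 9.47 in day 1 wounds, and 9.50 and 9.75 in day 4 wounds. Its wound arrays lay above the intact ones without overlap. It was higher by 0.68 on day 1 (limma adjusted p = 0.00839) and by 0.97 on day 4 (limma adjusted p = 0.00285), and the day 1 call was lost without either intact array (highest adjusted p = 0.0564).

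RefSeq promoter windows, 250 bases before to 50 after a start, were found for 4 of the 7 genes, Awat1, Awat2, Elovl4 and Scd3. Those of Awat1, Awat2 and Elovl4 are shown because these 3 genes had the same order of group means, day 4 over day 1 over intact skin. Dgat2, without a window, had this order too, and none of these genes passed between the days. Capitals mark matches on either strand to a TATA box (TATAAA), the CCAAT box, a GC box (GGGCGG), an E-box (CACGTG) and the sterol response element TCACNCCAC. Each runs from 5′ to 3′ along the gene's strand in GRCm38.p6, and Awat2 has 2 annotated starts.
Awat1 (chrX:100571997-100572296, plus strand): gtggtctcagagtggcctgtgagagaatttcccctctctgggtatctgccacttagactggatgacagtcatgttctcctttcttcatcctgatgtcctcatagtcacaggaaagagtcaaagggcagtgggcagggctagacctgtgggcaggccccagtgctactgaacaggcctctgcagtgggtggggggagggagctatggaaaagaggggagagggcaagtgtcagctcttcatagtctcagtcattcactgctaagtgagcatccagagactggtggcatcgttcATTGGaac
Awat2 (chrX:100442668-100442967, minus strand): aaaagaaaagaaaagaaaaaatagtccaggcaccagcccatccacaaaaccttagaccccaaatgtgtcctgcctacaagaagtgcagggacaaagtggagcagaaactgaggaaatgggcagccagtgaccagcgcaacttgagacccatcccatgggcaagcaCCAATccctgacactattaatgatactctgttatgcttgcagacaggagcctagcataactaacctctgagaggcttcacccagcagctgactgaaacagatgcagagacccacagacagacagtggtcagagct
Awat2 (chrX:100412538-100412837, minus strand): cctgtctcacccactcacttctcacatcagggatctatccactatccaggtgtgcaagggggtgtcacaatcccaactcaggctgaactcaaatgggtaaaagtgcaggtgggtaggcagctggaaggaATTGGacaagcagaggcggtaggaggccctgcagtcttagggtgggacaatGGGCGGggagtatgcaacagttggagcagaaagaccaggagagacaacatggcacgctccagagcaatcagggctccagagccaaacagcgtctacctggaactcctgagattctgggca
Elovl4 (chr9:83806256-83806555, minus strand): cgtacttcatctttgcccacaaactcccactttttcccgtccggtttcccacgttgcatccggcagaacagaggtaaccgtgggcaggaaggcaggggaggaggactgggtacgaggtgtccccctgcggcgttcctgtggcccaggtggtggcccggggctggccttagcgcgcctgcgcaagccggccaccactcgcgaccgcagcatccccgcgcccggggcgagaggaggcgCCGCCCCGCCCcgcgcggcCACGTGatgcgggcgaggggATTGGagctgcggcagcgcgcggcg
A CCAAT match stood in all 4 windows, as in 37.4% of 32544 mouse promoter windows of this length. GGGCGG matches, found in 35.9% of windows, stood in the second Awat2 window and, with a pair overlapping by a base, in that of Elovl4. CACGTG stood in the Elovl4 window and in 7.2% of all. TATAAA (13.6% of all windows) and TCACNCCAC (1.2%) had no match in these 4 windows or in that of Scd3, which held none of the 5 motifs. A match describes these letters and no binding.

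Dgat2 encodes an enzyme of the last step of triglyceride synthesis and is expressed in sebocytes, adipocytes and epidermis. It had 10.87 and 10.89 in intact skin, 10.91 and 10.86 in day 1 wounds, and 10.88 and 10.94 in day 4 wounds. The groups overlapped in all 3 comparisons. The difference was 0.01 on day 1 (95% interval −0.17 to 0.18, limma adjusted p = 0.968) and 0.03 on day 4 (95% interval −0.14 to 0.20, limma adjusted p = 0.791), so the intervals end at fold changes of 1.13 and 1.15. Its sign turned under other scalings.

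Elovl3 and Elovl4 lengthen fatty acids: Elovl3 acts on the long chains of sebum and hair lipids, and mice without it have a sparse coat, while Elovl4 makes the longest chains, which the epidermis builds into barrier ceramides. Elovl3 had 9.92 and 10.02 in intact skin, 9.65 and 9.84 in day 1 wounds, and 10.41 and 10.57 in day 4 wounds. Its day 1 arrays were the lowest and its day 4 arrays the highest, without overlap between groups. It was higher in day 4 wounds than in day 1 wounds, at 10.49 ± 0.11 against 9.75 ± 0.13 (SD, n = 2 each), a 1.68-fold rise (log2 difference 0.75, SE 0.10, limma adjusted p = 0.0305). Against intact skin (9.97 ± 0.07, n = 2) the difference was 0.52 on day 4 (SE 0.10, limma adjusted p = 0.0125) and −0.23 on day 1 (95% interval −0.47 to 0.02, limma adjusted p = 0.148), and the day 1 value did not pass.

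The call between the days was lost without any 1 of the 6 arrays, with log2 differences of 0.65 to 0.84 and limma adjusted p from 0.0816 to 0.124, and also when only the 4 wound arrays were fitted (0.75, adjusted p = 0.0933). The day 4 call against intact skin was lost without day 4 replicate 2 (0.44, adjusted p = 0.0666), intact replicate 1 (0.47, adjusted p = 0.0876) or intact replicate 2 (0.57, adjusted p = 0.0524) in limma.

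Elovl4 had 12.11 and 12.07 in intact skin, 12.27 and 12.34 in day 1 wounds, and 12.51 and 12.60 in day 4 wounds. The groups did not overlap, and the order was intact skin, day 1, day 4. The step between the days, 0.25 (95% interval 0.07 to 0.43, limma adjusted p = 0.151), did not pass. The log2 difference from intact skin was 0.47 on day 4 (SE 0.08, limma adjusted p = 0.00677) and 0.22 on day 1 (95% interval 0.03 to 0.40, limma adjusted p = 0.0799). On day 1 it passed with a mean-variance trend in the prior (0.22, limma adjusted p = 0.0308) and with quantile normalization (0.27, adjusted p = 0.0367), and the day 4 call was lost without intact replicate 2 (0.45, adjusted p = 0.0502).

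Scd3 encodes a stearoyl-CoA desaturase of skin, which puts a double bond into saturated fatty acids. It had 10.97 and 10.82 in intact skin, 10.73 and 11.26 in day 1 wounds, and 10.48 and 11.15 in day 4 wounds. On each day replicate 1 lay below both intact arrays and replicate 2 above both, so the groups overlapped throughout. The differences of 0.10 on day 1 (95% interval −0.51 to 0.71, limma adjusted p = 0.802) and −0.08 on day 4 (95% interval −0.69 to 0.53, adjusted p = 0.844) did not pass, and the day 1 interval reaches up to a 1.63-fold rise. The Scd genes are near copies of each other that lie together on chromosome 19, and how far the probe sets share signal was not tested.

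Scd2, its neighbour and paralog, had 11.43 and 11.29 in intact skin, 10.12 and 10.36 in day 1 wounds, and 10.93 and 10.70 in day 4 wounds. All wound arrays lay below the intact ones, at differences of −1.12 on day 1 (limma adjusted p = 0.00118) and −0.55 on day 4 (limma adjusted p = 0.0201). Scd4 was lower by −0.53 and −0.39 on the same days (limma adjusted p = 0.00513 and 0.0195), and the day 4 calls of Scd2 and Scd4 were each lost without at least 1 array (highest adjusted p = 0.123 and 0.114). Scd4 was dim, between 5.61 and 6.25, under the median of every array. Scd1, the main isoform of mouse sebocytes, lay between 12.53 and 12.66 on all 6 arrays (−0.04 on day 1, limma adjusted p = 0.739).

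Mc5r encodes the melanocortin 5 receptor, through which peptides of the alpha-MSH family act on exocrine glands, and mice without it make less sebum lipid. Mc5r had 10.18 and 10.25 in intact skin, 8.94 and 8.75 in day 1 wounds, and 9.05 and 9.15 in day 4 wounds. Every wound array was more than a log2 unit below both intact arrays, and the day 4 arrays were above those of day 1. The log2 difference from intact skin was −1.37 on day 1 (SE 0.09, 95% interval −1.59 to −1.15, limma adjusted p = 0.000234) and −1.12 on day 4 (SE 0.09, 95% interval −1.34 to −0.89, limma adjusted p = 0.000696). Both calls held without any 1 array, with highest adjusted p of 0.00425 and 0.00978 in limma. Day 4 exceeded day 1 by 0.26 (95% interval 0.03 to 0.48, limma adjusted p = 0.211), which did not pass.

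**Figure D2:**
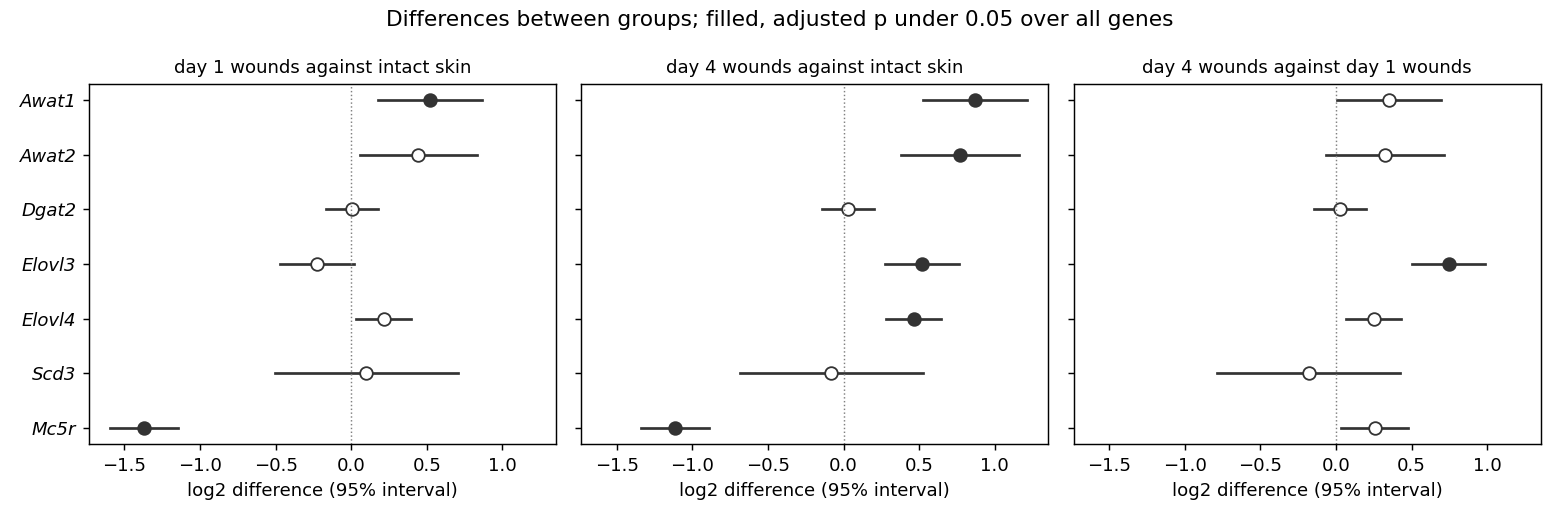
Log2 differences of the 7 genes in the 3 comparisons, with 95% intervals from limma; filled points have an adjusted p under 0.05 over all genes. On day 4 the enzymes Awat1, Awat2, Elovl3 and Elovl4 lie at 0.47 to 0.87 and Mc5r at −1.12.

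The genes whose pattern over the 6 arrays came nearest were found by the root mean square difference between log2 values after each gene's own mean was taken off. For Mc5r these were Slc6a13 (0.055), Robo1 (0.073) and Ttyh2 (0.075), and for Awat1 they were Tc2n (0.049), Ces4a (0.058) and Hs6st2 (0.065). For Awat2 they were Xlr (0.070), Pi16 (0.076) and Cpq (0.078), for Elovl3 Prc1 (0.075), Nynrin (0.075) and Meg3 (0.081), and for Elovl4 Olfr225 (0.020), Gins1 (0.024) and Pik3r1 (0.025). None of the 7 lipid genes was among the 3 nearest of these 5, and Scd3 and Dgat2, which did not pass the F test, were not searched.

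Related genes were followed in 6 lists with 77 measured genes. The shares called on day 1 and day 4 were 44.4% and 33.3% for ester synthesis and 55.6% and 55.6% for elongation and desaturation. They were 27.3% and 27.3% for fatty acid supply and 30.8% and 30.8% for sebocyte markers and regulators. For melanocortin signalling they were 44.4% and 33.3%, and for the acylceramide route 58.8% and 41.2%. On day 1, 17 of the 77 were higher and 18 lower than in intact skin (45.5% called, against 29.3% of all genes), with a median log2 difference of 0.01 where that of all genes was −0.04. On day 4, 19 were higher and 11 lower (39.0%, against 26.9%), with a median of 0.11 against −0.03. Of these calls 15 and 11 held without any 1 of the arrays. Of the 77 genes, 73 lay above the lower quartile on all 6 arrays, whereas the shares of all genes include dim genes. With the dimmest 30% of genes left out, larger shares of all genes were called, 5806 of 13953 on day 1 and 5297 of 13953 on day 4. The excess of the lists over all genes was not tested at equal brightness.

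Of 9 further genes of ester synthesis, 3 were higher and 1 lower on day 1, and 3 were higher on day 4. Beside Dgat2l6, Dgat1, the other triglyceride-forming acyltransferase, rose by 0.49 on day 1 and 0.59 on day 4 (limma adjusted p = 0.0189 and 0.0110). Far1, which makes fatty alcohols, rose by 0.47 on day 4 (limma adjusted p = 0.0155), Lpin1, a phosphatidate phosphatase, rose by 0.60 on day 1 (adjusted p = 0.0125), and Agpat2, which makes phosphatidic acid, fell by 0.44 on day 1 (adjusted p = 0.00896). Mogat1 and Mogat2, which acylate monoglycerides, were at −0.33 and −0.13 on day 1 and passed nowhere. Mogat1 lay under the lower quartile on every array but intact replicate 1. Of the calls in this list that of Dgat2l6 on day 4 held without any 1 array.

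Of 18 genes of elongation and desaturation, 4 were higher and 6 lower on day 1, and 5 were higher and 5 lower on day 4. The falls were the desaturases other than Scd1 and Fads1, with Hacd3 on day 1. Fads2, which desaturates polyunsaturated fatty acids and in sebocytes also palmitate (known from human), had 10.02 and 9.93 in intact skin, 8.56 and 8.86 in day 1 wounds, and 8.64 and 8.24 in day 4 wounds, and fell by 1.27 on day 1 and 1.54 on day 4 (limma adjusted p = 0.00198 and 0.00135). Its wound arrays lay more than a log2 unit below the intact ones. Fads3 fell by 1.43 and 1.38 (limma adjusted p = 0.00573 and 0.00798). On the side of elongation Hacd4, a dehydratase of the elongation cycle, rose by 1.34 and 1.70 (limma adjusted p = 0.00263 and 0.00147), with Hacd1 at 0.67 and 0.68 (adjusted p = 0.00791 and 0.00930).

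Among the other elongases Elovl6 and Elovl7 passed on day 4 and missed the threshold on day 1, as did Elovl3 and Elovl4. Elovl6, which lengthens palmitate, had 11.78 and 11.71 in intact skin, 11.75 and 11.68 in day 1 wounds, and 12.09 and 12.16 in day 4 wounds. It rose by 0.38 on day 4 (limma adjusted p = 0.0137) and was at −0.03 on day 1. Elovl7 rose by 0.43 on day 4 (limma adjusted p = 0.00749) and was at 0.06 on day 1. Elovl1 rose by 0.36 on day 1 (limma adjusted p = 0.0387) and was at 0.24 on day 4 (adjusted p = 0.130), Elovl5 was at 0.04 and 0.21, and Elovl2 lay under the lower quartile on all arrays. In this list the calls of Scd2, Scd4, Fads2, Fads3 and Hacd4 on day 1 and of Fads2 and Hacd4 on day 4 held without any 1 array.

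Of 11 genes of fatty acid supply, 1 was higher and 2 lower on day 1, and 2 were higher and 1 lower on day 4. That was 27.3% called on each day, near the 29.3% and 26.9% of all genes. All 11 lay above the lower quartile on all 6 arrays. With the dimmest 30% of genes left out the shares of all genes were larger, at 5806 and 5297 of 13953. Thrsp, a regulator of lipogenesis, had 9.15 and 8.81 in intact skin, 7.03 and 6.94 in day 1 wounds, and 8.43 and 8.49 in day 4 wounds. It was lowest on day 1 and in between on day 4, at differences of −2.0 (limma adjusted p = 0.000161) and −0.52 (limma adjusted p = 0.0230). Fasn, fatty acid synthase, was at −0.38 on day 1 (limma adjusted p = 0.0237) and −0.02 on day 4. Acacb, an acetyl-CoA carboxylase, rose by 0.39 and 0.56 on the 2 days, and Me1, which supplies NADPH, rose by 0.40 on day 4 (limma adjusted p = 0.0370). Thrsp was higher in day 4 than in day 1 wounds by 1.48 (limma adjusted p = 0.0115). In this list the day 1 call of Thrsp held without any 1 array and every other call was lost without at least 1.

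**Figure D3:**
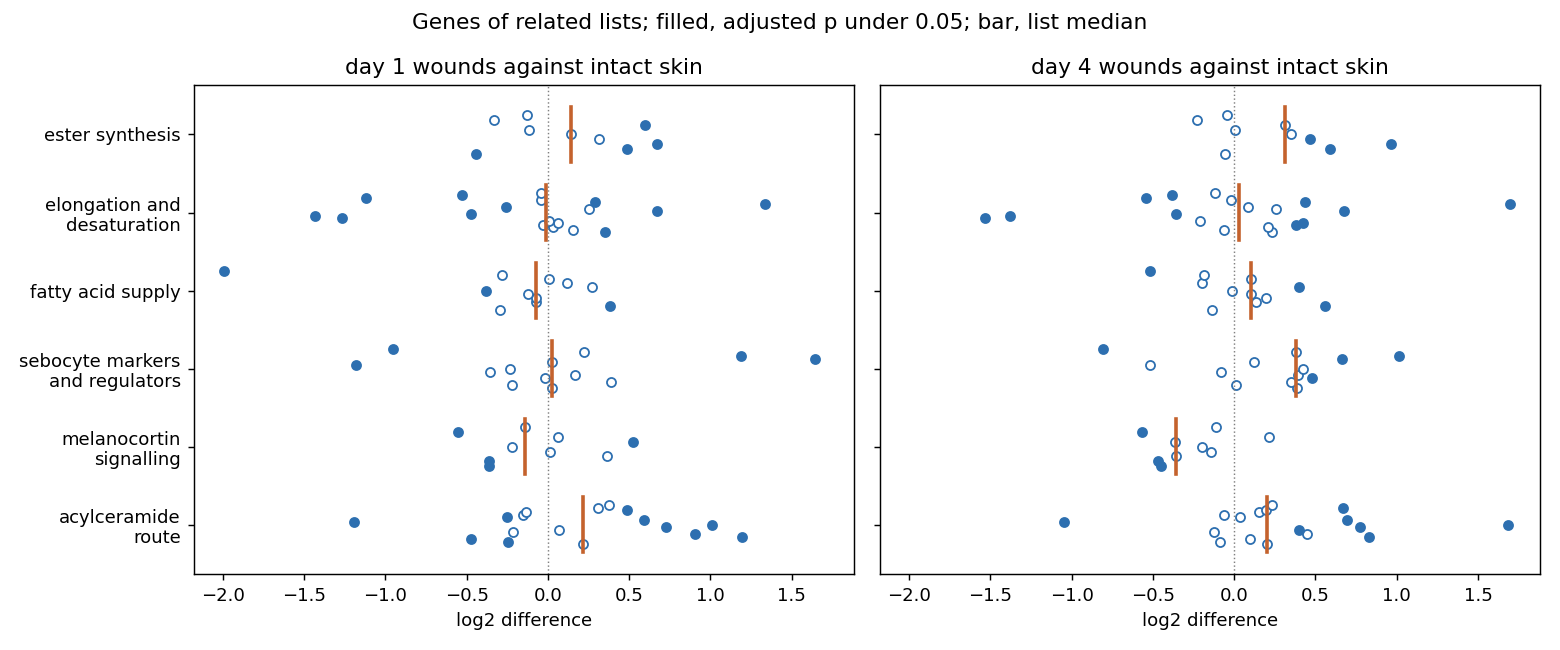
Log2 differences from intact skin of the genes of 6 related lists, on day 1 (left) and day 4 (right); each point is a gene, filled where the adjusted p is under 0.05, and bars are list medians. Points spread to both sides in most lists, and on day 4 the medians run from −0.36 for melanocortin signalling to 0.38 for sebocyte markers and regulators.

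Of 13 sebocyte markers and regulators, 2 were higher and 2 lower on day 1, and 3 were higher and 1 lower on day 4, with medians of 0.03 and 0.38. That was 30.8% called on each day, near the 29.3% and 26.9% of all genes. It was below the shares with the dimmest 30% of genes left out, 5806 and 5297 of 13953. Plin2, which coats lipid droplets, rose by 1.19 and 1.02 (limma adjusted p = 0.000365 and 0.000928), and the mucin Muc1 by 1.65 and 0.67 (adjusted p = 0.000917 and 0.0288). Muc1 had 6.00 and 6.15 in intact skin, under the median of these arrays. Which cells of the biopsies gave these rises was not tested. Cidea, a protein of lipid droplets, had 8.31 and 8.56 in intact skin, 8.29 and 8.54 in day 1 wounds, and 9.0 and 8.83 in day 4 wounds. It rose by 0.48 on day 4 (limma adjusted p = 0.0369). Prdm1, a transcription factor of differentiated sebocytes and epidermis, fell by 0.95 and 0.81 (limma adjusted p = 0.00241 and 0.00544), and Lrig1, of stem cells near the gland, fell by 1.18 on day 1 (adjusted p = 0.00937). Pparg, the nuclear receptor of sebocyte and fat cell differentiation, was at 0.22 and 0.38 and did not pass, nor did Mgst1, Apoc1 or Krt79 on either day. The calls of Plin2 and Prdm1 on both days and of Muc1 on day 1 held without any 1 array.

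Of 9 genes of melanocortin signalling, 1 was higher and 3 lower on day 1, and 3 were lower on day 4. Mc1r, the receptor of pigment cells, was lower by −0.36 and −0.47 (limma adjusted p = 0.0344 and 0.0154). It lay between 6.13 and 6.71 over the 6 arrays, dimmer than Mc5r at 8.75 to 10.25. Pcsk1, which cleaves the hormone precursor, was at −0.56 and −0.57 (limma adjusted p = 0.00766 and 0.00841), and Atrn, an accessory receptor, at −0.36 and −0.45 (adjusted p = 0.0227 and 0.0120). Pcsk1 had intensities of 5.46 to 6.19, and like Mc1r it lay under the median of every array. Mrap, a partner of the receptor Mc2r, was higher by 0.53 on day 1 (limma adjusted p = 0.0138). Mrap and Mc2r were lower in day 4 than in day 1 wounds by −0.89 and −0.72 (limma adjusted p = 0.0255 and 0.0390). Pomc, the gene of the hormone precursor, was at −0.14 and −0.11 and passed in no comparison, Mc3r and Mc4r lay under the lower quartile on at least 1 array, and every call in this list was lost without at least 1 array.

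Of 17 genes of the acylceramide route, into which the products of Elovl4 pass in the epidermis, 6 were higher and 4 lower on day 1, and 6 were higher and 1 lower on day 4. Degs2, a sphingolipid desaturase and hydroxylase, had the greatest rise of the list on day 4, at 1.69 (limma adjusted p = 0.000184), after 1.01 on day 1 (adjusted p = 0.000608). The lipoxygenases Alox12b and Aloxe3 rose by 1.20 and 0.91 on day 1 (limma adjusted p = 0.00118 and 0.00626), and Alox12b by 0.83 on day 4 (adjusted p = 0.00572). Pnpla1, the transacylase that completes acylceramide, fell by 1.20 and 1.05 (limma adjusted p = 0.000209 and 0.000484). Degs1 and Sdr9c7 rose on both days, by 0.59 to 0.78. Cers3, the ceramide synthase for the longest chains, was at −0.22 and −0.13 and did not pass. Without intact replicate 2 the day 1 calls of Aloxe3, Sptlc2, Abhd5 and Slc27a4 were lost, and 6 of 10 calls on day 1 and 6 of 7 on day 4 held without any 1 array.

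Markers of other cell types moved in the same biopsies. All 13 leukocyte markers were higher on both days, and the sums of their linear intensities were 2283 to 2925 in intact skin, 19696 to 24557 in day 1 wounds and 16032 to 17658 in day 4 wounds. Mmp8, the neutrophil collagenase, lay under the lower quartile in intact skin. Hair shaft and root sheath markers had 11 of 16 called lower on day 1 and 5 of 16 on day 4 (68.8% and 31.2%, against 29.3% and 26.9% of all genes). All 16 had lower means on both days, with differences of −6.29 to −2.675 on day 1 and −4.41 to −2.27 on day 4. Their sums were 62409 to 63362 in intact skin, 1119 to 9482 in day 1 wounds and 1419 to 25739 in day 4 wounds. Krt26 and Krt28 lay under the lower quartile on replicate 2 of both wound days, and the −6.29 was that of Krt28, so its size is uncertain. Without day 1 replicate 2, or without either intact array, 8 of the 11 day 1 calls were lost, and 3 of the 5 day 4 calls held without any 1 array. Epidermal markers had 6 of 14 higher and 1 lower on day 1, and 7 higher and 1 lower on day 4, of which 4 of 7 and 5 of 8 calls held without any 1 array. Their sums were 36792 to 37929 in intact skin, 42250 to 45196 in day 1 wounds and 45917 to 49012 in day 4 wounds. The median log2 difference of the epidermal list from intact skin was 0.33 on day 1 and 0.29 on day 4, with 50% and 57.1% called. Of 12 adipocyte markers, 2 were higher and 4 lower on day 1 (50% called), and 2 were lower on day 4 (16.7% called). Without intact replicate 1, 5 of the 6 day 1 calls were lost, and a single call, that of Lipe, the hormone-sensitive lipase, held without any 1 array on each day. Their sums were 13895 to 14049 in intact skin, 12935 to 13946 in day 1 wounds and 12591 to 14225 in day 4 wounds, and Ucp1, the thermogenic protein of brown fat, lay under the lower quartile on all 6 arrays. The part of these cell types in the values of the 7 lipid genes was not tested.

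On both days the hair markers were lower on replicate 2 than on replicate 1, with list medians relative to intact skin of −6.28 against −3.25 on day 1 and −5.80 against −1.74 on day 4. The 5 genes Awat1, Awat2, Elovl3, Elovl4 and Scd3 were all higher on replicate 2 than on replicate 1 on both days. The gap on day 1 and on day 4 was 0.30 and 0.30 for Awat1, 0.50 and 0.01 for Awat2, and 0.53 and 0.67 for Scd3. It was 0.19 and 0.16 for Elovl3, and 0.07 and 0.09 for Elovl4. Replicate 2 minus replicate 1 was −0.19 on day 1 and 0.10 on day 4 for Mc5r, and −0.05 and 0.06 for Dgat2. The part of the hair content of the biopsies in these gaps was not tested. Over all genes, replicate 1 minus replicate 2 correlated at 0.685 between the wound days, so a shared direction on both days was not particular to the lipid genes.

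**Figure D4:**
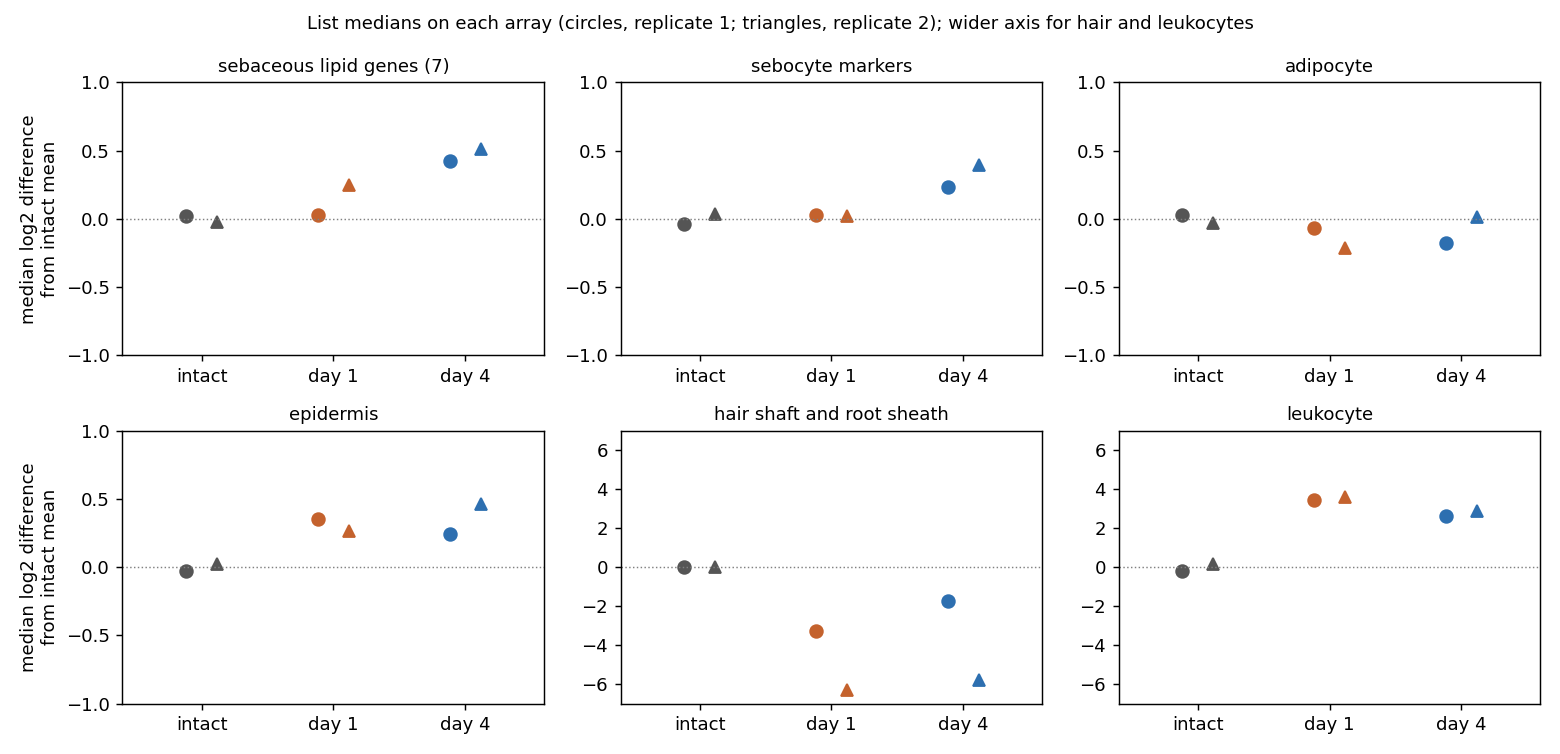
Median log2 difference from the intact mean on each array, over the 7 lipid genes, sebocyte markers and regulators, and markers of adipocytes, epidermis, hair and leukocytes; circles are replicate 1 and triangles replicate 2, and the hair and leukocyte panels have a wider axis. The 7 lipid genes lie at 0.42 and 0.51 on the day 4 arrays, epidermal markers at 0.24 and 0.46, and hair markers at −1.74 and −5.80.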

How the data were processed

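RNA of 6 skin biopsies was hybridised to Affymetrix mouse gene arrays, with RNA integrity numbers of 7.7 to 9.1 per the labels. Each deposited value is the log2 intensity of a probe set, rounded to 2 decimals, and the authors used RMA, of a version not given here, per the submitters' processing notes. Of 35556 probe sets, 21789 carried 1 symbol in the array annotation, 1621 had more than 1 and were not used, and 12146 had no entry. For genes with several probe sets (999), the brightest over 6 arrays was used, giving 19938 genes. The tests were those of limma 3.58.1 (R 4.3.3) (a mean per group, eBayes, all 6 arrays, 3 residual and 3.4 prior degrees of freedom), two-sided, with Benjamini-Hochberg adjustment over all genes and a threshold of 0.05, and the fit was tested on simulated data. SE and 95% intervals are limma's. The genes and lists were chosen with earlier results of these data known. The lists named 154 genes, of which 139 were measured by exact symbol. Named genes were the 7 lipid genes, their paralogs, up to 6 genes of each list that passed with the largest differences, and the 3 nearest patterns of the 5 lipid genes that passed the F test. Outside that rule, Pparg, Mgst1, Apoc1, Krt79, Pomc, Cers3, Fads1, Hacd3, Ucp1 and genes whose calls were lost or held without an array were named after their values were seen. Alternatives were quantile normalization, cyclic loess, median centring, a trended or robust prior, only the 2 groups compared, leaving out the dimmest 30% of genes, averaged probe sets, a replicate block and leaving out each array. Signal was not tested against background, so values under the lower quartile are uncertain.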

Additional observations from a re-analysis of the deposited data

How the results depend on the processing

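The calls of Mc5r against intact skin on both days kept their direction and their side of the threshold under all 15 alternatives. Awat1 on day 1 missed the threshold with quantile normalization (0.46, limma adjusted p = 0.0565). Fitting only the 2 groups compared left 17 of all genes, 0 of the 7 lipid genes and 1 related gene called between day 4 and day 1 wounds. Leaving out 1 array at a time gave 3149 to 5673 genes on day 1, 2246 to 4907 on day 4 and 14 to 184 between the days. Of the 7 lipid genes it left 1 to 3, 1 to 5 and 0, and of the related genes 18 to 32, 14 to 30 and 0 to 2. By the F test among the 3 groups 5 of the 7 lipid genes were called, and 2 to 5 without 1 array.

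Dgat2, which passed nowhere, changed sign on day 1 with cyclic loess (−0.042), median centring (−0.020) and quantile normalization (−0.053), and without single arrays ranged from −0.020 to 0.030. On day 4 it did so with cyclic loess (−0.033) and median centring (−0.025), and between the days with median centring (−0.0050) and without day 4 replicate 2 (range −0.0050 to 0.055). Without single arrays Scd3 ranged from −0.17 to 0.37 on day 1, −0.42 to 0.26 on day 4 and −0.52 to 0.16 between the days. The scalings moved the median of all genes by at most 0.055. Where an array was left out, the lone array of its group was assumed to vary like the other groups.

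The replicate numbers are not stated to pair the samples. Replicate 1 minus replicate 2 correlated across genes at 0.685 between the wound days but at 0.014 and 0.023 between wounds and intact skin. With the replicate number as a block, 5864, 5497 and 583 genes were called, against 5842, 5371 and 444, and 2, 5 and 1 of the 7 lipid genes, and no call of the 7 changed.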
